A study of Mus musculus with 3 samples.

Results

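The nuclear-encoded genes of the mitochondrial respiratory chain were followed through long-read transcript models of naive and activated mouse CD4+ T cells. They were taken as all protein-coding genes of the GENCODE M21 annotation on nuclear chromosomes whose symbol starts with Nduf, Uqcr, Sdh followed by a to d, Cox4 to Cox8 or Atp5, which gave 98 of 21938 nuclear protein-coding genes. The rule uses gene symbols and no measured value, though it was set with earlier results of these data known. By name, 46 of them belong to complex I, 8 to complex II, 8 to complex III, 18 to complex IV and 18 to complex V, and 12 of the 98 encode assembly factors rather than subunits. The symbol Atp5o stands for 2 gene identifiers, and Ndufa4 was kept with complex I by its name although the protein is now placed in complex IV.

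The cells came from spleens and lymph nodes of male C57BL/6N mice aged 6 to 10 weeks by the study's methods. Naive CD4+ T cells carried the division dye CellTrace Violet and were taken either unstimulated or after 48 h of activation through anti-CD3 and anti-CD28 antibodies, when dye peaks were used to sort them into cells with 0 divisions (undivided cells) and cells with 2 divisions. Each of the 3 conditions had 1 PacBio library, made for a survey of moderately to highly expressed transcripts, so no test was possible, every difference lies between libraries, and 95% intervals below are exact (Clopper-Pearson) and cover counting error only. The naive library was run on one sequencing cell and both activated libraries on another, so sequencing cell and activation cannot be told apart.

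The deposited data are exon positions without read counts, for 10527 (naive), 12602 (undivided) and 11109 (2 divisions) isoforms. A gene is called seen in a library where at least 1 isoform of it is listed, and how much of it was there is not known. Genes of the CD4 T cell list (Cd3e, Cd3d, Cd3g, Cd4, Lck, Trac and Thy1) were seen 7 of 7 in naive cells and 5 of 7 in each activated library. The activation markers Il2ra, Tfrc and Gzmb had 0, 0 and 1 isoforms in naive cells. They had 10, 8 and 15 in undivided cells and 6, 5 and 13 after 2 divisions. B cell genes stood at 4 of 5 with 18 isoforms in naive cells, led by Ighm with 12, and at 1 of 5 (Ighm, 5 and 4 isoforms) in the activated libraries. Of the myeloid and erythroid lists only Lyz2 and Hbb-bs were seen, with 1 isoform each in naive cells. The part of such other cells in the values below was not tested.

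The respiratory chain hands electrons from NADH (complex I) and succinate (complex II) through complex III to oxygen at complex IV, and the proton gradient built on the way drives ATP synthesis at complex V. A core of hydrophobic subunits is encoded by mitochondrial DNA, while most subunits and all assembly factors are encoded in the nucleus, many of them as small proteins with short mRNAs. Naive T cells rely largely on oxidative phosphorylation, and activated T cells add glycolysis while also expanding their mitochondria.

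At least 1 isoform was listed for 33 of the 98 genes in the naive library (33.7%, 95% interval 24.4 to 43.9%), for 38 in the undivided library (38.8%, 29.1 to 49.2%) and for 37 in the 2-division library (37.8%, 28.2 to 48.1%). Among all nuclear protein-coding genes the shares were 21.1% (naive), 24.9% (undivided) and 23.0% (2 divisions), below the respiratory chain interval in each library. Over the libraries 50 of the 98 genes were seen at all and 24 in every library. Their isoforms numbered 51 (naive), 77 (undivided) and 71 (2 divisions), which is 4.84, 6.11 and 6.39 per 1000 isoforms of the library. Between naive and undivided cells 27 of 46 genes had more isoforms and 11 fewer (58.7% and 23.9%, against 49.3% and 26.1% of all protein-coding genes). Between naive cells and cells after 2 divisions 23 of 44 had more and 9 fewer (52.3% and 20.5%, against 44.1% and 31.4%).

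**Figure D1:**
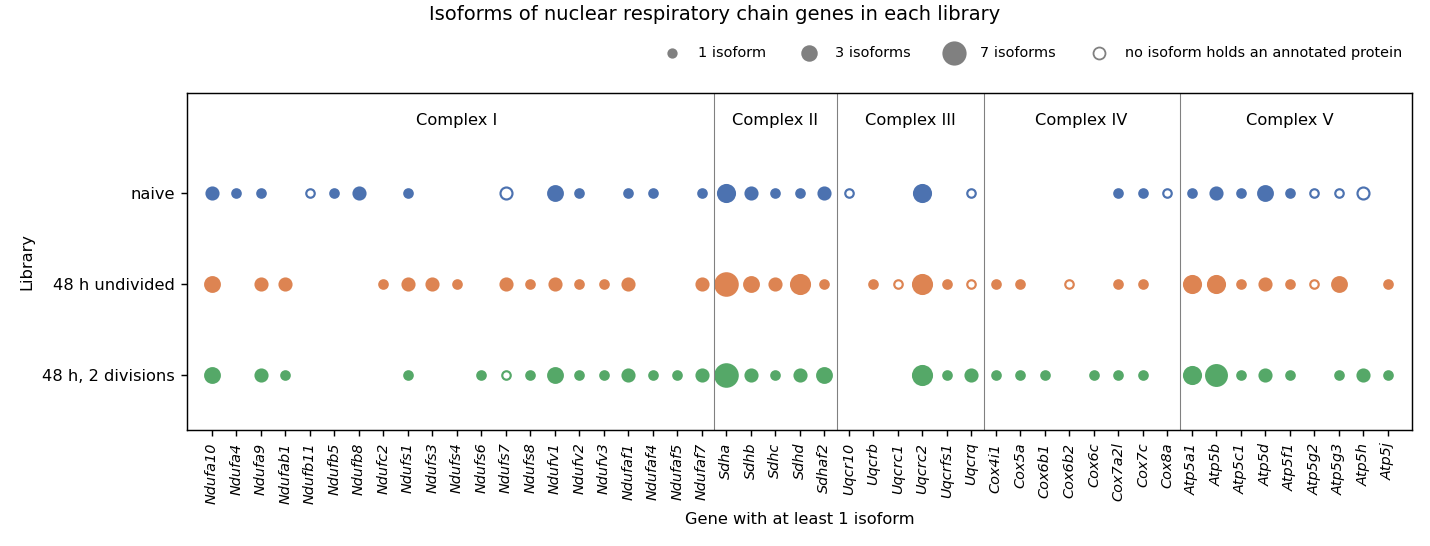
Each point is a gene (horizontal axis, by complex, 49 genes) with at least 1 isoform in a library (vertical axis), the area of the point grows with the number of isoforms, and open points mark genes with no isoform that holds a whole annotated coding sequence. Sdha carries or shares the largest point of each row, complex IV genes have at most 1 isoform each, and 8 open points lie in the naive row against 4 and 1 in the activated rows.

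Complex I, the NADH dehydrogenase, was split between its catalytic core and its accessory subunits. All 7 nuclear genes of the core, whose products carry the flavin and the iron-sulfur clusters, had an isoform in undivided cells, 5 had one in naive cells and 6 after 2 divisions. Of the other 31 subunit genes, 6 were seen (naive), 6 (undivided) and 5 (2 divisions). Ndufa10 had 2, 3 and 3 isoforms (in the order naive, undivided, 2 divisions here and below) and Ndufa9 1, 2 and 2, and both were the accessory subunits seen in every library. Within the core, Ndufv1 had 3, 2 and 3 isoforms, Ndufs7 2, 2 and 1, Ndufs1 1, 2 and 1 and Ndufv2 1 in each library. Ndufab1, the mitochondrial acyl carrier protein, had 0, 2 and 1, and Ndufv3, Ndufs8 and Ndufs3 had none in naive cells. Of the assembly factors, Ndufaf1 had 1, 2 and 2 isoforms, Ndufaf7, a methyltransferase needed for complex I assembly, 1, 2 and 2, and Ndufaf4 1, 0 and 1.

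Complex II, which is also the succinate dehydrogenase of the citric acid cycle, was seen with all 4 subunit genes in all 3 libraries. Sdha, the flavoprotein, had the most isoforms of the 98 genes over the libraries with 4, 7 and 7, Sdhb, the iron-sulfur subunit, had 2, 3 and 2, Sdhc 1, 2 and 1, and Sdhd 1, 5 and 2. The last 2 are the membrane anchors. Its assembly factor Sdhaf2, which helps attach the flavin to Sdha, had 2, 1 and 3. In complex III, Uqcrc2, a core subunit without redox centre, had 4, 5 and 5 isoforms, the Rieske iron-sulfur protein Uqcrfs1 had 0, 1 and 1, and Uqcrc1 and Uqcrb had 1 each in undivided cells only. The small subunit Uqcrq had 1, 1 and 2 isoforms, and its spliced mRNA of 456 nt with the whole 82-residue coding sequence was listed after 2 divisions alone.

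Complex IV, cytochrome c oxidase, was seen with 3, 5 and 6 of 18 genes and never more than 1 isoform of a gene in a library. Cox4i1 and Cox5a had 0, 1 and 1 isoforms, and Cox7a2l, a relative of Cox7a2 linked to supercomplexes of III and IV, had 1 in each library. Of the subunits that exist as tissue forms, the muscle, lung or testis forms Cox4i2, Cox6a2, Cox7a1, Cox7b2, Cox8b and Cox8c had no isoform in any library, and neither had Ndufa4l2, a relative of Ndufa4. The single exception was Cox6b2, a testis form, with 1 unspliced model of 1230 nt in undivided cells, in which all 3 introns were kept. The common forms Cox6a1, Cox7a2 and Cox7b were not seen either, so an absence here does not mark a tissue form. Complex V, the ATP synthase, was seen with 8 of 18 genes in each library. The subunits of the catalytic head, Atp5b (2, 4 and 6 isoforms) and Atp5a1 (1, 4 and 4), had the most over the libraries, although Atp5d of the central stalk (3, 2 and 2) had the most in naive cells. Atp5c1, also of the central stalk, and Atp5f1 of the outer stalk had 1 in each library. Atp5j, another outer stalk subunit, had 0, 1 and 1 isoforms. Of the 3 genes for the membrane ring subunit c, Atp5g1 was not seen, Atp5g2 had 1, 1 and 0 isoforms and Atp5g3 1, 3 and 1.

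The 48 genes with no isoform were mostly those with short mRNAs. They were, in complex I, Ndufa1, Ndufa2, Ndufa3, Ndufa4l2, Ndufa5, Ndufa6, Ndufa7, Ndufa8, Ndufa11, Ndufa12, Ndufa13, Ndufb2, Ndufb3, Ndufb4, Ndufb6, Ndufb7, Ndufb9, Ndufb10, Ndufc1, Ndufs5 and the assembly factors Ndufaf2, Ndufaf3, Ndufaf6 and Ndufaf8. In complex II they were the assembly factors Sdhaf1, Sdhaf3 and Sdhaf4, in complex III Uqcr11 and Uqcrh, in complex IV Cox4i2, Cox5b, Cox6a1, Cox6a2, Cox7a1, Cox7a2, Cox7b, Cox7b2, Cox8b and Cox8c, and in complex V Atp5e, Atp5g1, Atp5j2, Atp5k, Atp5l, Atp5mpl, both Atp5o genes and Atp5s. The median annotated coding mRNA of these genes was 641 nt long (from 321.5 to 4323 nt), against 1122 nt (434 to 3632 nt) for the 50 genes that were seen. For comparison, the median over all protein-coding genes was 2314 nt.

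Grouped by that length, 18.8% of the 32 genes under 600 nt were seen (naive), 18.8% (undivided) and 12.5% (2 divisions). Of the 15 genes from 1500 to 2499 nt, 60%, 80% and 66.7% were seen. Other protein-coding genes were also seen less often in the shortest class: under 600 nt 2.26%, 4.41% and 2.71% of 885 genes were seen, and from 1500 to 2499 nt 26%, 30.8% and 28.9% of 5733. From 1000 to 1499 nt the respiratory chain shares (53.3%, 60% and 60% of 15) had intervals above those of the other genes (16.4%, 21.6% and 21.7% of 2990). The same held from 1500 to 2499 nt in every library. It also held under 600 nt in the naive and undivided libraries and from 600 to 799 nt after 2 divisions. In the remaining classes and libraries the intervals overlapped. The length classes were chosen after the data had been seen, and why short mRNAs were seldom listed was not tested.

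**Figure D2:**
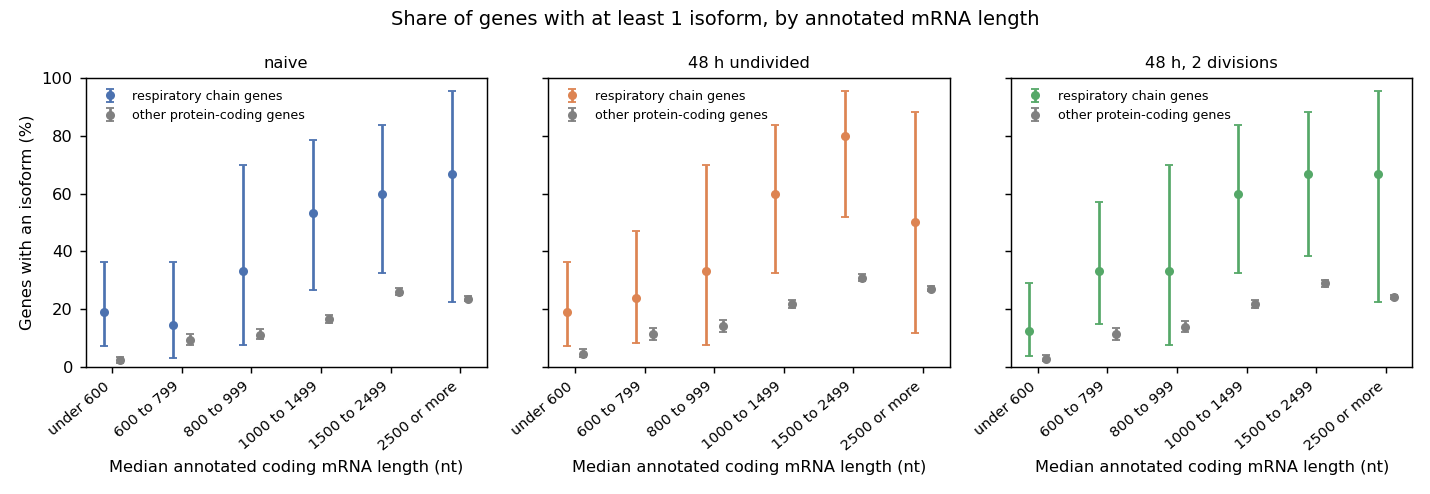
The share of genes with at least 1 isoform (vertical axis, percent, with exact 95% intervals) is drawn by class of median annotated coding mRNA length (horizontal axis, nt) for each library, colored for respiratory chain genes and grey for other protein-coding genes. In every library both kinds of genes were seen less often below 800 nt than above 1000 nt, and the colored point lies above the grey one in each class.

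The libraries themselves held few short models. Models under 600 nt made up 0.199% of all isoforms (naive), 0.786% (undivided) and 0.729% (2 divisions). Among respiratory chain isoforms there were 0 of 51, 3 of 77 and 5 of 71, and the shortest was 843 nt (naive), 433 nt (undivided) and 423 nt (2 divisions). Several small subunits were thus listed as spliced mRNAs only in activated cells. Cox6c (423 nt), Cox6b1 (468 nt) and Ndufs6 (479 nt), a zinc-binding subunit at the complex I core, were seen only after 2 divisions, as was the assembly factor Ndufaf5 (1100 nt). Uqcrb (495 nt), Ndufc2 (606 nt), Ndufs4 (668 nt) and Ndufs3 were seen only in undivided cells. Each of these 8 genes had an isoform that held a whole annotated coding sequence. The remaining genes seen only in undivided cells, Cox6b2 and Uqcrc1, had none.

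The genes seen only in naive cells were 6. Ndufb5 was listed as a complete spliced mRNA of 1000 nt. Ndufa4 (1721 nt), Ndufb11 (2037 nt) and Uqcr10 (2361 nt) were each listed as 1 model that kept an intron, and Cox8a (1308 nt) as 1 unspliced model that ended inside an intron. Ndufb8 had a spliced model of 2138 nt with a last exon of 1645 nt and a model of 1816 nt that kept an intron and used another last exon of 161 nt. Only Ndufb5 thus had the longest annotated protein of its gene in full.

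Of the respiratory chain genes, 25 of the 33 seen in naive cells had an isoform that held a whole annotated coding sequence, against 34 of the 38 seen in undivided cells and 36 of the 37 seen after 2 divisions (75.8%, 89.5% and 97.3%). Over all protein-coding genes seen, the shares were 82.9% (naive), 86.3% (undivided) and 86.6% (2 divisions), inside the respiratory chain intervals (57.7 to 88.9%, 75.2 to 97.1% and 85.8 to 99.9%). The 8 naive exceptions were Ndufb11, Ndufs7, Uqcr10, Uqcrq, Cox8a, Atp5g2, Atp5g3 and Atp5h. In undivided cells they were Uqcrc1, Uqcrq, Cox6b2 and Atp5g2, and after 2 divisions Ndufs7. For Cox7c in all libraries and Ndufa4 in naive cells the sequence held was a short annotated form of 49 residues, against 63 and 82 residues for the longest annotated protein. Counted by isoform, the shares were 60.8%, 58.4% and 67.6%, close to those of other protein-coding genes (58.8%, 61.5% and 62.3%).

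**Figure D3:**
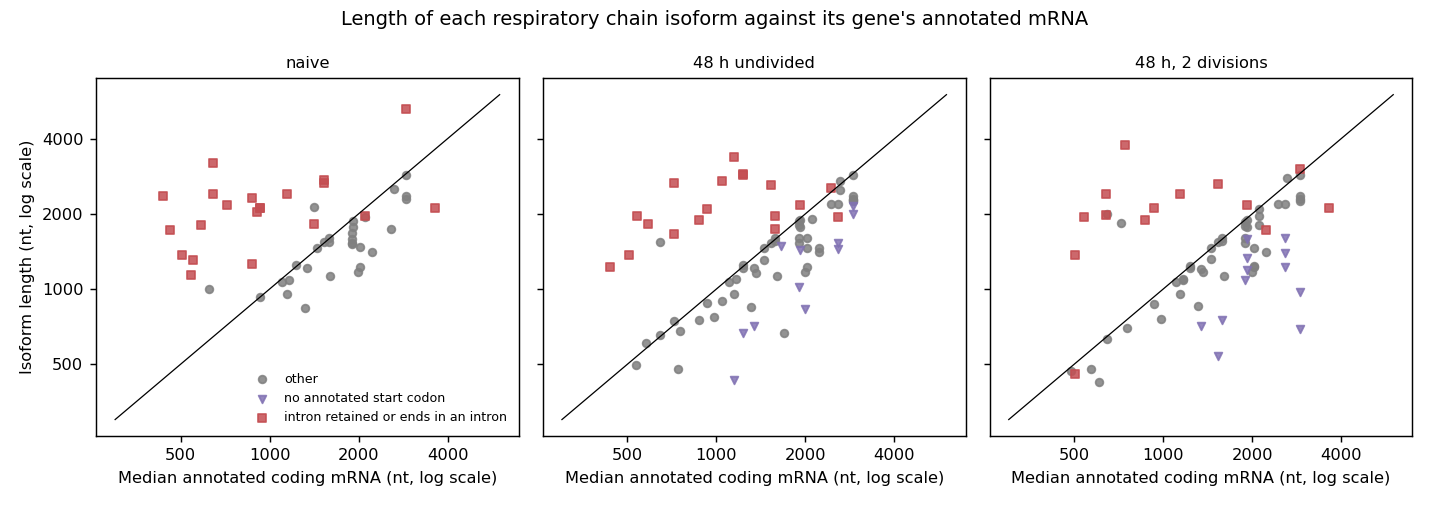
Each point is an isoform of a respiratory chain gene, with its length (vertical axis, nt, log scale) against the median annotated coding mRNA of its gene (horizontal axis, nt, log scale), where squares keep an intron or end inside one, triangles hold no annotated start codon, and the line marks equal lengths. In naive cells the points left of 800 nt are squares far above the line but for 1 (Ndufb5), while both activated panels add points on the line below 800 nt and triangles below it.

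Intron retention, here a model exon that spans a whole intron of the reference transcript (the coding transcript with the most exons), was found in 18 of 51 naive isoforms (35.3%, 95% interval 22.4 to 49.9%), 17 of 77 undivided isoforms (22.1%, 13.4 to 33%) and 13 of 71 isoforms after 2 divisions (18.3%, 10.1 to 29.3%). Over all protein-coding genes the shares were 18.1% (naive), 12.2% (undivided) and 11.2% (2 divisions). In naive and undivided cells the respiratory chain interval lay above the background share, and after 2 divisions it held it. The background was not matched for mRNA length, with a median annotated coding mRNA of 2314 nt against 746.25 nt for the 98 genes. Whether length bears on the higher shares was not tested. Altogether 40 introns of 24 genes were retained, with lengths from 73 to 2972 nt and a median of 729 nt. For 9 of them an annotated transcript of the gene keeps the intron too.

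The same 5 introns were kept in all 3 libraries, and 9 more in 2. In Ndufv1, which holds the flavin that takes electrons from NADH, this was the 1092-nt intron at chr19:4010010-4011101 (GRCm38, minus strand), and reading from the annotated start codon gave 115 residues in the isoform that kept this intron alone, where the spliced isoform gives 464. Fully spliced Ndufv1 was listed beside it in each library. In Atp5d the 1225-nt intron at chr10:80142607-80143831 was kept (80 residues instead of 168), again beside a spliced model in each library. In Ndufs7, an iron-sulfur subunit, the 502-nt intron at chr10:80253158-80253659 was kept (46 or 18 residues instead of 224), and the spliced mRNA of 748 nt was listed in undivided cells alone. The other 2 lay in small genes. Cox7c kept the 731-nt intron at chr13:86045870-86046600, in naive cells in a model of 1138 nt and in both activated libraries in unspliced models of 1948 to 1954 nt. Uqcrq kept an 85-nt intron that its main annotated transcript also keeps. Atp5b had a model with the 411-nt intron at chr10:128085627-128086037 in both activated libraries (277 residues instead of 529) and none in naive cells. Atp5h, of the outer stalk, had 2 naive models of 2407 and 3201 nt that kept 3 and 4 introns, none in undivided cells, and models of 1973 and 2408 nt after 2 divisions, of which the first held the whole 161-residue coding sequence.

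An exon of the reference transcript was skipped in 10.6%, 8.22% and 8.82% of spliced respiratory chain isoforms, against 15.3%, 14.5% and 12.7% over all protein-coding genes, which lie inside the respiratory chain intervals (3.55 to 23.1%, 3.08 to 17% and 3.31 to 18.2%). In Ndufaf7 in undivided cells, the 144-nt exon at chr17:78944941-78945084 was skipped in frame, for 388 residues instead of 436. Cox7a2l was listed in all libraries only as a 3-exon mRNA of 1064 nt that encodes 111 residues, without the annotated 69-nt exon that gives the 134-residue form. Both junctions are shown because they define the isoforms, with the exon before the skip in lower case and the exon after it in capitals:
Ndufaf7, base 78943944 joined to base 78946296 of chromosome 17, plus strand: gaagccttcattcaaGGGTTTTATGGACAC
Cox7a2l, base 83504100 joined to base 83502737 of chromosome 17, minus strand: cagaagtttttccagAAGGCTGATGGTTTC

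Against the reference transcript, exon skips were also counted in Ndufv2 (97 nt) and Sdhaf2 (92 nt) in all libraries and in Atp5j (55 nt) in undivided cells, but those models had intron chains found whole or in part in annotated transcripts, as had the Cox7a2l model. Ndufs1, the largest core subunit, used an acceptor 6 nt downstream of the annotated one in 1 undivided isoform, which removes 2 residues (725 instead of 727). Both acceptors follow an AG, and the 6 bases between them are in capitals:
Ndufs1, chr1:63157260-63157289, minus strand: ttctgtttccagTTACAGaattttgaaggc
Another Ndufs1 isoform after 2 divisions carried an added 104-nt exon ahead of the coding sequence and still held all 727 residues. Ndufaf1 had, in both activated libraries and not in naive cells, a further isoform with a shorter first exon and the same 330 residues. Ndufs8 started from a first exon outside the reference transcript in both activated libraries, a chain that is annotated and encodes the full 212 residues. Ndufv3, known for a long and a short protein form, was listed in undivided cells as the long form of 468 residues. After 2 divisions its single model used an acceptor 508 nt upstream, skipped no exon and was longer (2003 against 1544 nt). It held an annotated coding sequence of 86 residues, and whether that is the known short form was not tested.

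Measured by intron chains, annotated chains were equalled by 31 of 47 spliced naive isoforms (66%), 43 of 73 undivided ones (58.9%) and 47 of 68 of the 2-division library (69.1%), against 61.3%, 62.4% and 63.8% over all protein-coding genes. An intron absent from the annotation was carried by 2, 4 and 1 isoforms, which is 4.26%, 5.48% and 1.47%, against 11%, 10.1% and 8.33% of the spliced isoforms of other genes. Ndufa10 and Ndufs1 carried such an intron in undivided cells and Uqcrc2 in naive cells. The Uqcrc2 intron did not start with GT, and its donor lay 2 nt from the annotated one.

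Respiratory chain isoforms without any annotated start codon of their gene were listed in the activated libraries only. The naive library had 0 of 51 (95% interval 0 to 6.98%), the undivided library 11 of 77 (14.3%, 7.35 to 24.1%) and the 2-division library 12 of 71 (16.9%, 9.05 to 27.7%). The shares over all protein-coding genes were 8.74% (naive), 13.5% (undivided) and 14.6% (2 divisions), so the respiratory chain lay below the background in naive cells and near it in the others. Atp5a1 had 2 such isoforms of 10 exons each in the undivided library and 3 of 6 to 9 exons in the 2-division library, against 12 exons in the full model. Atp5b had 1 and 3, Sdha 2 and 2, and Uqcrc2, Ndufa9 and other genes 1. Ndufa9 and Uqcrc2 models started at the same base in both activated libraries (126840563 on chromosome 6 and 120643085 on chromosome 7). Uqcrc1, the other core subunit of complex III, was listed only in this way, as a 12-exon model of 1487 nt in undivided cells. Spliced respiratory chain isoforms that matched only part of an annotated intron chain made up 10.6%, 20.5% and 20.6%. Over all protein-coding genes these shares were 12.9%, 16.2% and 17.2%. Whether the models without a start codon are whole transcripts was not tested.

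**Figure D4:**
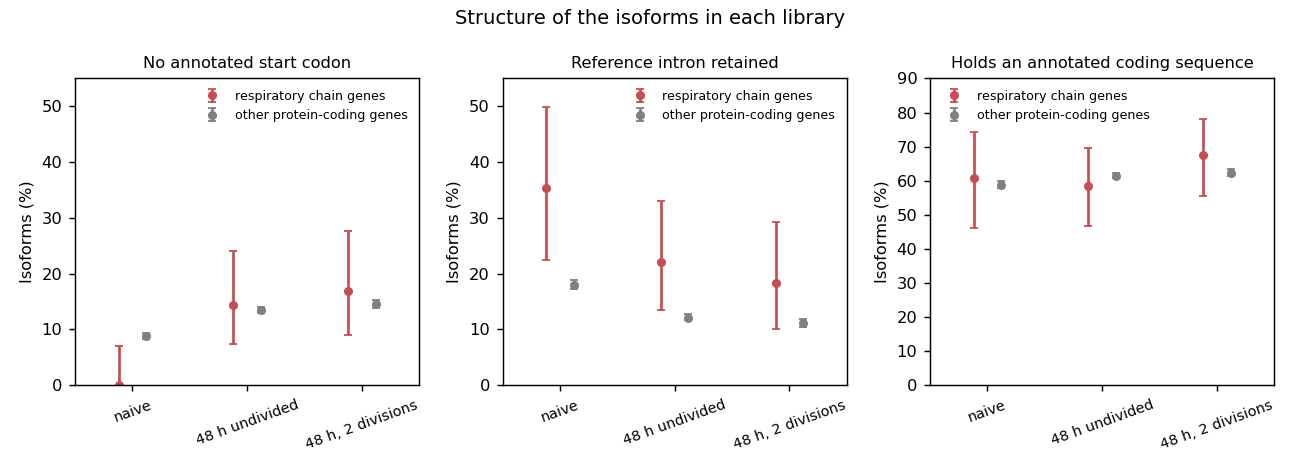
The share of isoforms (vertical axis, percent, with exact 95% intervals) is drawn for 3 structures in each library (horizontal axis), red for respiratory chain genes and grey for other protein-coding genes. Isoforms without a start codon are at 0 in naive cells and at 14.3% and 16.9% in the activated libraries, retained introns are at 35.3%, 22.1% and 18.3%, and the share holding an annotated coding sequence stays between 58.4% and 67.6%.

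Several 3′ ends were listed for 6, 8 and 9 of the respiratory chain genes seen (18.2%, 21.1% and 24.3%, with intervals of 6.98 to 35.5%, 9.55 to 37.3% and 11.8 to 41.2%). The shares over all protein-coding genes, 27.9%, 30.8% and 29.2%, lie inside these intervals. Isoforms were grouped into terminal exon families, which share the start of the last exon, and 7 of 52 families over the libraries had several ends once ends no more than 24 nt apart had been joined. Among the 66 merged ends, 54 had AATAAA or ATTAAA in the last 50 nt, and 48 lay within 24 nt of an annotated end. By isoform, 82.4%, 79.2% and 83.1% had such a poly(A) signal, against 66.2%, 68.4% and 68.8% in other protein-coding genes. In 8 of the 66 ends the genome after the end was A-rich (at least 12 A in 20 nt), and 7 of those 8 had neither signal.

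Uqcrc2 had the most ends, 5 in its last exon. A last exon of 173 to 184 nt was found in all libraries, one of 250 to 258 nt in all libraries, one of 310 nt in naive cells alone, and ones of 457 to 459 nt and of 503 nt in both activated libraries but not in naive cells. The mean last exon of the family was 229.2 nt over 4 naive isoforms, 315.8 nt over 5 undivided ones and 331 nt over 5 of the 2-division library. The 30 bases that carry or precede these ends on chromosome 7 (GRCm38, plus strand) are shown with the signal in capitals:
Uqcrc2 184 nt, chr7:120659175-120659204: aatgttaattcaacattttctcaatgaagt
Uqcrc2 251 nt, chr7:120659242-120659271: ctgtcctagtgtcAATAAAgcattgtgtgt
Uqcrc2 310 nt, chr7:120659301-120659330: gtcagcaagtatttATTAAAtgctttaagg
Uqcrc2 457 nt, chr7:120659448-120659477: gctttttaaAATAAAaacaactttaacact
Uqcrc2 503 nt, chr7:120659494-120659523: tgccccatgtacagtaaacctgcgtttctg
The shortest of them had no signal in its last 50 nt and was followed by 17 A in the next 20 bases (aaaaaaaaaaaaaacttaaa), and the 310-nt end was followed by 12.

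Sdha had naive ends 358, 419 and 919 nt into the last exon, and each had a counterpart within 5 nt in both activated libraries. Ends at 303 and 336 nt were listed in undivided cells alone and one at 314 nt after 2 divisions alone, all without a signal. Joining ends no more than 24 nt apart chains these to the 358-nt end, so that the merged ends number 3 over the libraries although single libraries had 3, 4 and 4. The 358-nt and 919-nt ends carried AATAAA, and the 419-nt end carried neither signal, as the minus strand of chromosome 13 shows:
Sdha 358 nt, chr13:74322816-74322845: ttatttccaAATAAAaccatgtagtagtgg
Sdha 419 nt, chr13:74322755-74322784: aaatataattttcttccgctgtctagctgc
Sdha 919 nt, chr13:74322255-74322284: ttgtaagccaAATAAAccctttctcaaagt
Atp5b ended at 254 to 258 nt (1, 3 and 5 isoforms) and at 370 to 372 nt (1 in each library), with AATAAA before the first and ATTAAA before the second (chromosome 10, plus strand):
Atp5b 254 nt, chr10:128090243-128090272: ttaaagttttcAATAAAgtatatacccctc
Atp5b 372 nt, chr10:128090361-128090390: tattATTAAAaagatcaatttattaatgag
Both Atp5b ends were thus listed in every library.

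Atp5a1 differed between the libraries. Its naive isoform ended 100 nt into the last exon, 255 nt from the nearest annotated end and with no signal, while isoforms of undivided cells ended at 100, 210, 216 and 564 nt and those after 2 divisions at 211, 564, 566 and 566 nt, where the ends from 564 nt lay within 2 nt of an annotated end. Ndufa10 ended at 420 to 422 nt with AATAAA in all libraries and at 185 to 187 nt, before 16 A in 20 nt, in all libraries too. Sdhd ended at 901 to 905 nt in all libraries and at 869 nt, before 13 A in 20 nt, in both activated ones.

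**Figure D5:**
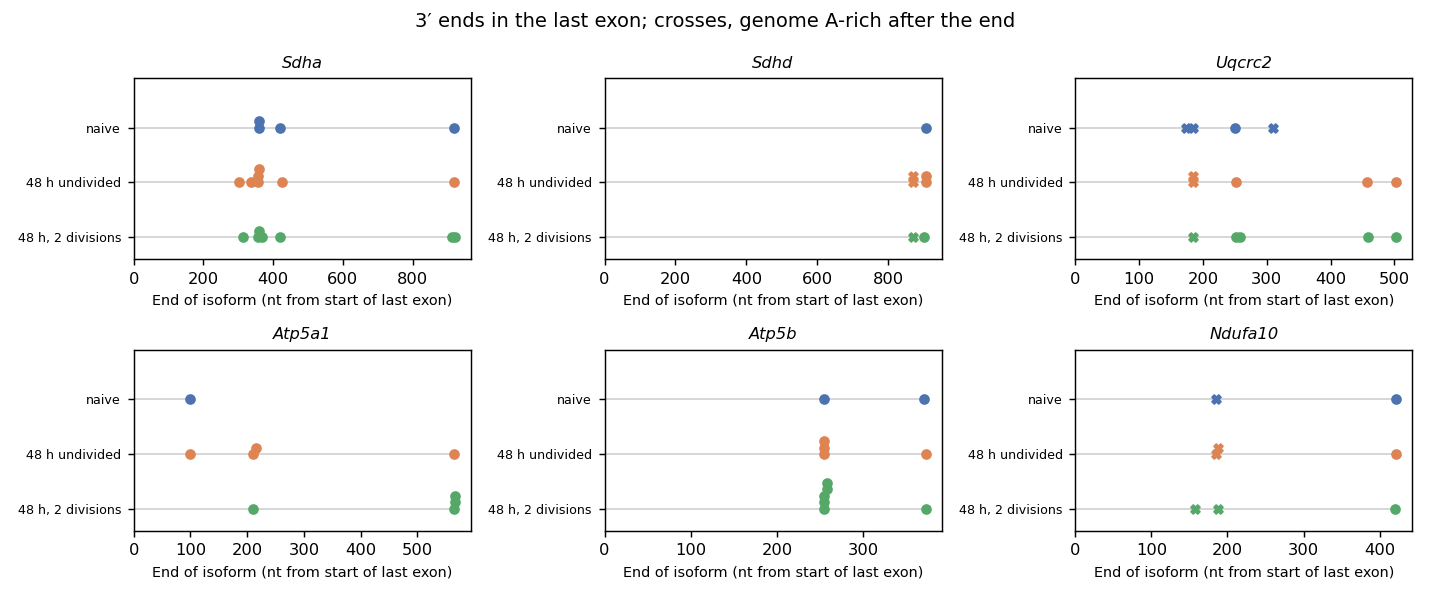
For 6 genes, each point is the 3′ end of a spliced isoform, as its distance in nt from the start of the last exon (horizontal axis), in each library (vertical axis), with crosses for ends followed by at least 12 A in 20 nt of genome and points within 6 nt of each other stacked. Uqcrc2 ends from 457 nt and Atp5a1 ends from 210 nt appear in the activated rows only.

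The study asked how 3′ ends move with activation and division. It called such moves from separate 3′ end sequencing (A-seq2) and kept the long reads as a further layer of information. The means below count each listed isoform once, so they do not measure how much an end was used. Of 22 families in both the naive and the undivided library, 0 were shorter in undivided cells by over 100 nt in mean last-exon length and 2 were longer, Atp5a1 by 172.5 nt and Ndufaf7 by 105 nt. The shares over all protein-coding genes were 13.0% shorter and 5.67% longer, against which 2 of 22 is no result about the respiratory chain. No interval was computed for families called shorter or longer, so 0 shorter is not read as a result either, here or in the comparisons below. Of 23 families in naive cells and after 2 divisions, 0 were shorter and 2 longer (Atp5a1 by 376.8 nt and Uqcrc2 by 101.8 nt), against 13.5% and 4.79%. From undivided cells to 2 divisions 0 of 29 were shorter and 1 longer (Atp5a1 by 204.2 nt), against 8.41% and 6.95%. With the longest last exon of each library in place of the mean, Atp5a1 was not longer in this last comparison. The Atp5a1 means of the activated libraries include isoforms without an annotated start codon, and its 12-exon isoform ended at 564 nt in both. The longer Ndufaf7 end, 483 nt into the last exon, was followed by 16 A in 20 nt and had no signal. The mean differed by 5 nt or less in 15 of 22, 16 of 23 and 23 of 29 families (68.2%, 69.6% and 79.3%), and in 62.9%, 64.1% and 65.6% of the families of all protein-coding genes, inside the respiratory chain intervals (45.1 to 86.1%, 47.1 to 86.8% and 60.3 to 92%).

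A few ends lay inside introns, each before an A-rich stretch. Unspliced Uqcrq models ended at the same base, 53429448 of chromosome 11, in all 3 libraries, before 18 A in 20 nt. Unspliced Sdhb models ended at base 140963796 of chromosome 4 in naive cells and after 2 divisions, also before 18 A. Atp5g2 models of naive and undivided cells ended 1423 nt into an intron at base 102663631 of chromosome 15, before 14 A. Whether such models started from intronic A runs of unspliced RNA was not tested.

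Related groups were set beside the respiratory chain. Of the 13 proteins encoded by mitochondrial DNA, 6, 5 and 7 had an isoform, among them mt-Co1 (2, 3 and 2 isoforms), mt-Nd5 (2, 4 and 4) and mt-Cytb (1 each). The genes mt-Atp6, mt-Atp8, mt-Nd3, mt-Nd4l and mt-Nd6 had none in any library. All 13 citric acid cycle genes were seen in all 3 libraries, with 24, 29 and 33 isoforms. Of 38 further assembly factors and electron carriers, 16, 18 and 19 were seen, and of 10 genes of mitochondrial transcription and biogenesis 7, 7 and 6. Mitochondrial ribosome genes, 78 in all, were seen in 29 cases in the naive library (37.2%), 44 in the undivided (56.4%) and 43 in the 2-division library (55.1%). Their shares lay further apart between the naive and the activated libraries than those of the respiratory chain (33.7%, 38.8% and 37.8%), though that difference was not tested.

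Promoter sequences of RefSeq (GRCm38, 250 bases before to 50 after the start) were matched for 79 of the 98 genes and searched on both strands. GCGCATGC, a core of the site of the respiratory factor NRF1, was in 12 of them (15.2%, 95% interval 8.1 to 25%) and in 4.11% of 16522 protein-coding promoters. CGGAAG, a core of ETS family sites such as that of GABP, was in 35 (44.3%, 33.1 to 55.9%) and in 24.2% of all. CCAAT was as frequent as elsewhere (43% and 42.1%), and TATAAA was in 10.1% against 14.3%. None of these motifs contains another. The NRF1 letters were in 5 of 40 genes that were seen and 7 of 39 that were not, and TATAAA in 1 of 40 and 7 of 39. A match describes the sequence and does not show that a factor binds there.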

How the data were processed

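Transcript models from PacBio long reads of 3 libraries were analysed. According to the study's methods, consensus calling (ccs), primer removal (lima), selection for poly(A) tails and clustering (isoseq3), mapping (pbmm2), collapsing and annotation (SQANTI3) were done by the authors. The submitters' notes also name minimap2, Subread, mm10 and GRCm38. The deposited values are exon start and end positions (no counts, no score), so depth is known only as numbers of isoforms.

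Positions were set against GRCm38 and GENCODE M21 (the study used a later release). Each isoform went to the gene sharing most splice sites, else most exonic sequence on its strand. Isoforms on patch and other sequences outside the reference used (85, 99 and 83) were left out of gene assignment. Events were taken against the coding transcript with the most exons, and proteins were read from annotated start codons. A mean last-exon difference of over 100 nt was called. The members, gene lists and rules were chosen with earlier results of these data known. Named genes are those with most isoforms, changed isoform numbers, several ends, recurring events or cassette exons, tissue forms, and members seen in 0 or 1 library. The single values of 1 gene are not reported here, though counts over all genes include it. The code recovered known changes (a skipped exon, a retained intron or a moved splice site) in models simulated from the same reference transcripts. Protein classes, lost start codons and ends inside introns were not covered by this check. Python 3.11.15, scipy 1.17.1, numpy 2.4.6, matplotlib 3.10.9 and samtools 1.23.1 were used.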

Additional observations from a re-analysis of the deposited data

How the results depend on the processing

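Of 75 alternative values, 56 stayed within 1.5 times the main one. Genes seen with at least 2 isoforms numbered 12 (naive), 19 (undivided) and 16 (2 divisions), against 33, 38 and 37 with at least 1. Genes with several 3′ ends fell from 6, 8 and 9 to 3, 4 and 5 without A-rich ends. Isoforms with an unlisted intron chain (16, 30 and 21) fell to 2, 4 and 1 where every intron being annotated counted as listed, and to 15 in undivided cells and 7 after 2 divisions where part of an annotated chain counted. Isoforms with an alternative exon event after 2 divisions fell from 25 to 14 when models of the libraries were compared with each other. Shorter terminal exon families, 0 in each comparison, became 1 from naive to undivided cells and 1 from undivided cells to 2 divisions at over 50 nt, and 1 in the latter with the longest last exon. Longer families went from 2 to 0 (naive to undivided) and from 2 to 1 (naive to 2 divisions) at over 200 nt, and from 1 to 2 at over 50 nt and to 0 with the longest last exon (undivided to 2 divisions). The cause was not tested. With coding sequence length in place of mRNA length, chosen after seeing the data, 38.4% of 73 genes under 600 nt and all 9 from 1000 to 1499 nt were seen in any library, against 22.9% of 3438 and 36.3% of 4593 other genes. No paired analysis was possible because each condition has 1 library, and no library could be left out. With no read counts, an unlisted isoform is not an absent one.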
